A study of Mus musculus with 6 samples.

Results

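The enzymes that add methyl groups to lysines of histones, and those that take them off, were followed as a family of genes in mouse heart. Members were the rows of the count table whose symbols begin with Kdm and a digit from 1 to 8, with Kmt and 2 or 5, or with Setd followed by a digit or b, together with Ezh1, Ezh2, Ehmt1, Ehmt2, Nsd1, Dot1l, Suv39h1 and Suv39h2. Kdm5d was left out. The rule found 45 of 49315 rows: 26 methylase or SET-domain genes, 18 demethylase (Kdm) rows and the antisense transcript Kdm6bos. Of these, 42 had enough reads to be tested. Kdm4dl, which GENCODE lists as a pseudogene, had 0 reads in all 6 libraries, Kdm4d had 1 read in all, and Kdm6bos had between 1 and 7 reads per library.

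Polyadenylated RNA came from mid-ventricular tissue of 2 groups of adult mice, 3 libraries each, and the design text calls the libraries of a group biological replicates. One group is labelled wild type (WT), the other a knockout of Tet2 restricted to endothelial cells (TET2KO). Tet2 encodes a dioxygenase that oxidises methylated cytosine in DNA. Both groups had received Angiotensin II, the pressor peptide of the renin-angiotensin system, infused under the skin for 28 days (1 mg/kg/day), so the data hold no heart without Angiotensin II. Labels put all 6 libraries in the same batch. The sources used here do not give the Cre driver, the deleted exons, the sex or the exact age. The tissue is a mix of cells of which endothelium is a part, and in such a mix fewer cells of a type and less RNA per cell cannot be told apart.

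Histone methylation marks regions of chromatin. Methylation of lysine 4, 36 or 79 of histone H3 is found mostly at active genes, and methylation of H3 lysine 9 or 27 or of H4 lysine 20 mostly at silent or compacted chromatin. SET-domain enzymes, and DOT1L with a fold of its own, write these marks from S-adenosylmethionine. The KDM1 enzymes remove them with a flavin cofactor, and the JmjC enzymes with iron, oxygen and 2-oxoglutarate, the cofactors that TET enzymes also use. In the heart, several of these enzymes are known for holding the adult gene programme in place.

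Levels are given in CPM (counted reads scaled to a common size with TMM factors), as mean ± SD over 3 libraries (n = 3) or library by library in the order of replicates 1, 2 and 3. Each log2 fold change is of TET2KO relative to WT, ± its SE, from edgeR's quasi-likelihood test, and p-values are Benjamini-Hochberg adjusted over all genes tested. Because fold changes in this series follow transcript length, each comes in a pair: as counted, and after a fitted dependence on transcript length and GC content was subtracted (trend removed). The second value says how a gene stands against genes of like length and GC content, and a real difference that goes with length is lost from it.

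The libraries held between 22124844 and 30418909 reads, and no replicate pair agreed within sampling noise. Tet2, the targeted gene, went against the labels, at 4.27, 4.33 and 3.08 CPM across WT against 14.6, 8.01 and 10.4 CPM across TET2KO (log2 fold change 1.49 ± 0.29, adjusted p = 0.0065; trend removed 0.27 ± 0.17, adjusted p = 0.21). That count takes in all cells and all exons of the gene. Every direction below is that of the libraries as labelled. Whether the group labels are exchanged was not tested, and an exchange would turn the sign of every fold change given here. Mitochondrial transcripts took 9.83 to 10.5% of reads in WT and 14.5 to 18.1% in TET2KO. Heart muscle markers (10 genes, of which 4 were higher and 5 lower as counted) summed to between 72649 and 76823 TPM (a level per transcript length) in WT and between 57869 and 64054 in TET2KO, which fits the labelled tissue. Endothelial markers (10 genes, 6 higher and 3 lower) summed to 202 to 242 and 287 to 516 TPM, fibroblast markers (8 genes, 4 higher and 4 lower) to 1151 to 1291 and 1501 to 1645, and smooth muscle and pericyte markers (8 genes, 2 higher and 3 lower) to 874 to 1021 and 834 to 1141. Macrophage markers (8 genes, 3 higher and 2 lower) ran from 867 to 931 and from 500 to 708, lymphocyte markers (3 of 7 tested, 0 higher and 1 lower) from 3.01 to 7.75 and from 2.71 to 5.76. Red cell markers (5 of 6 tested, 0 higher and 5 lower) ran from 2928 to 14103 and from 566 to 2123, and proliferating cell markers (6 genes, 1 higher and 0 lower) from 2.62 to 3.34 and from 3.25 to 7.84. No marker was at 0 in all libraries. These counts are as counted, where 33.4% of all genes were higher and 29.4% lower. With the trend removed the shares of all genes were 21.9% and 24.3%. Heart muscle markers then had 5 higher and 2 lower, endothelial 5 and 2, fibroblast 1 and 0, and smooth muscle and pericyte 2 and 4. Macrophage markers had 1 and 2, lymphocyte 0 and 0, red cell 0 and 5, and proliferating cell 0 and 1. The marker sums carry a shift of the TPM scale, on which the median of all genes tested stood 0.41 higher in TET2KO (log2(TPM + 1)). The part of the marker shifts in the results below was not tested.

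Most members were low-level transcripts. Per transcript length, Kmt5a, which writes monomethylation of H4 lysine 20, stood highest at 83.8 ± 7.65 TPM in WT and 99.6 ± 5.79 TPM in TET2KO. Setd3, a SET-domain enzyme now known to methylate a histidine of actin, followed at 22.5 ± 2.84 and 39.3 ± 1.76 TPM. The lysine demethylase gene Kdm1a (LSD1) and Setd6, which methylates non-histone proteins, came next in WT at 7.18 ± 0.987 and 6.97 ± 0.559 TPM, a gap smaller than their spread. Kdm3a and Ehmt2 likewise stood together at 5.41 ± 0.816 and 5.36 ± 0.652 TPM in WT. At the other end were Setd1b, Kmt2a, Kmt2d and Kdm6b, at 0.111 ± 0.037, 0.187 ± 0.0308, 0.237 ± 0.0663 and 0.238 ± 0.0745 TPM in WT. All 45 rows together summed to between 158 and 193 TPM in the WT libraries and between 268 and 405 TPM in TET2KO. TPM is used here to order genes and to give sums. Its levels in WT and TET2KO are not a measure of change between the groups. On that scale the median of all genes tested was itself shifted upward in TET2KO, by 0.41 on log2(TPM + 1).

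**Figure D1:**
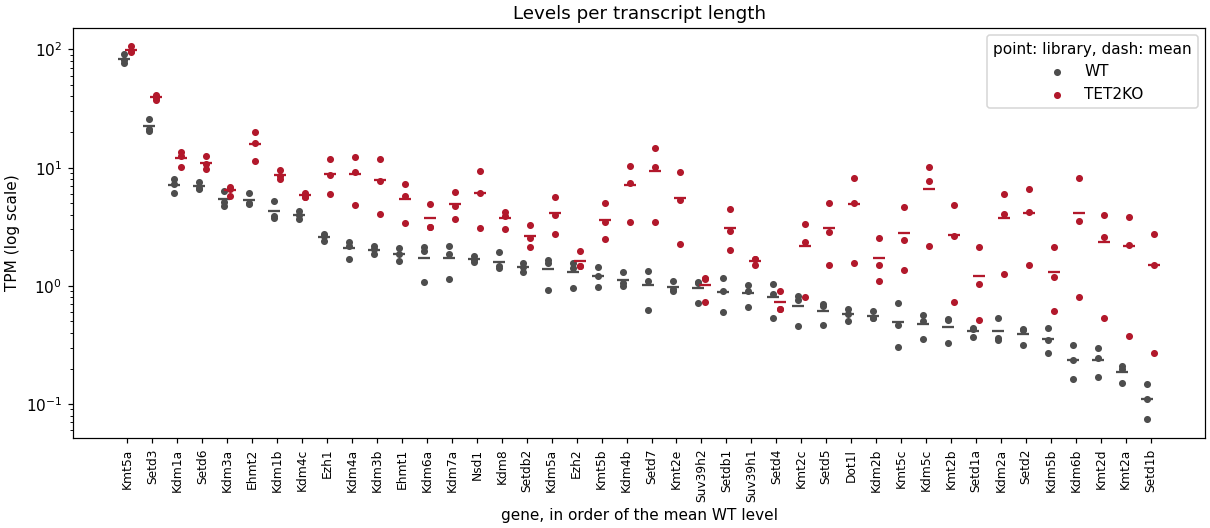
Level per transcript length (TPM, log axis) of the 42 tested members in each library, WT in grey and TET2KO in red, with a dash at each group mean. Kmt5a stands highest at a WT mean of 83.8 TPM and Setd1b lowest at 0.111 TPM, and the TET2KO points are spread more widely for the low members.

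As counted, 26 of the 42 tested members were higher in the libraries labelled TET2KO, 0 were lower and 16 did not pass the test. Over all 14370 genes tested, 33.4% were higher and 29.4% lower (62.9% in either direction). The median log2 fold change was 0.97 over the members and 0.046 over all genes. Of the calls, 20 had a log2 fold change of at least 1. The count depends on scaling: 35 members were higher with total library size, 35 on log2(TPM + 1) and 36 on log2(TPM + 0.1), with 0 lower in each. Under these scalings the median of all genes also moved, to 0.47, 0.41 and 0.64, and 74.2%, 79.6% and 79.4% of all calls were higher, against 53.2% with TMM factors. WT and TET2KO libraries did not overlap for 31 members, 29 of them higher in TET2KO, against 73.5% of all genes in either direction and 38.0% higher. At an adjusted p under 0.05, 27 of the 42 members were higher and 1, Kmt5a, lower (log2 fold change -0.43, adjusted p = 0.047) in the authors' deposited table, where 33.6% of its 14370 genes were higher and 31.4% lower (65.0% in either direction).

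The members are long. Their median longest transcript is 5944 nt, against 2996 nt over all genes tested, and their fold changes followed length (Spearman's rho = 0.66 over 42 members and 0.61 over 14341 genes, given as a description because the genes share libraries). Among the 21 members with shorter transcripts (1707 to 5935 nt) 7 were higher, with a median log2 fold change of 0.27, and of the 21 with longer ones (5953 to 19823 nt) 19 were higher, with a median of 1.81. After trend removal rho was 0.14, the median over the members was 0.089 (all genes: -0.031), and 26 members did not pass the test, while 7 were higher and 9 lower. Of all 14341 genes in that fit 21.9% were higher and 24.3% lower (46.2% in either direction), so the members' share of calls was near that background. Groups did not overlap for 22 members after trend removal, 10 of them higher, against 59.2% of all genes in either direction and 27.8% higher. Taking the settings together, 6 members were higher in both, 15 were higher as counted and not past the test with the trend removed, 5 were higher as counted and lower with the trend removed, 4 were lower and 1 was higher with the trend removed after not passing as counted, and 11 passed in neither.

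**Figure D2:**
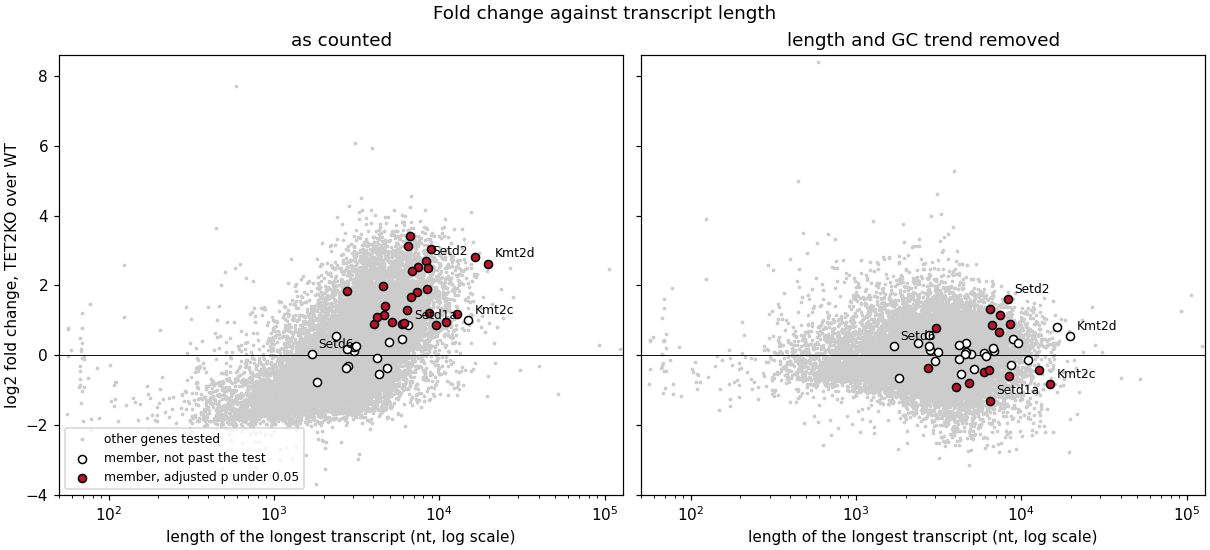
Log2 fold change of TET2KO over WT against the length of the longest transcript (nt, log axis), as counted on the left and with the length and GC trend removed on the right, for the other genes tested (grey) and the 42 members (circles, filled where the adjusted p was under 0.05). Members lie in the long part of the range, and the rise with length seen on the left (rho = 0.66 over the members) is small on the right (rho = 0.14).

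TET2KO replicate 2 stood nearest to WT among the TET2KO libraries. As counted, the median member stood 1.47, 0.50 and 1.07 above the WT mean on the log2 scale in TET2KO replicates 1, 2 and 3, and replicate 2 was the lowest of the 3 for 31 of 42 members. After trend removal these medians were 0.13, 0.053 and 0.095. Without TET2KO replicate 2, 30 members were higher and 3 lower as counted, and 12 were higher and 11 lower with the trend removed. The 3 lower as counted were Kdm3a, Kmt5a and Setd4, at -0.47, -0.47 and -1.01. Calls over all genes grew as well without that library. As counted, 5752 of 14370 genes were higher and 5142 lower, and with the trend removed 4069 of 14341 were higher and 4415 lower. The members lower after trend removal numbered 4 when TET2KO replicate 1 was left out, 3 when it was replicate 3, and 5, 5 and 3 when it was WT replicate 1, 2 or 3. The members higher numbered 4 when TET2KO replicate 1 was left out, and also 4 when it was WT replicate 1. Genes called over all with the trend removed fell too, from 6624. They numbered 4909 and 4031 without TET2KO replicate 1 or 3, and 4210, 4894 and 4273 without WT replicate 1, 2 or 3. With the other lengths tried in the trend, one implied by the authors' counts and TPM and one of all merged exons, 11 of the 16 calls were kept by both, 7 members not past the test passed with at least 1, and the sign of 6 members turned. The share of calls over all genes that was kept with the other lengths, or in all 10 alternatives, was not counted. Whether the members' calls held more or less often than those of other genes is therefore not known. In all, 7 calls held in all 10 alternatives run on the trend-removed fit: Setd2, Kdm5c, Setd7 and Kdm2a higher, and Setd1a, Kmt2c and Kdm3a lower. In GENCODE M21 (GRCm38) these are protein-coding genes, with Setd2 at chr9:110532597-110618633 and Kdm5c at chrX:152233020-152274535 on the plus strand, and Setd7 at chr3:51515319-51560879 and Kdm2a at chr19:4314419-4398285 on the minus strand. Setd1a lies at chr7:127776670-127800122 on the plus strand, Kmt2c at chr5:25271798-25498783 and Kdm3a at chr6:71588972-71632990, both on the minus strand.

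**Figure D3:**
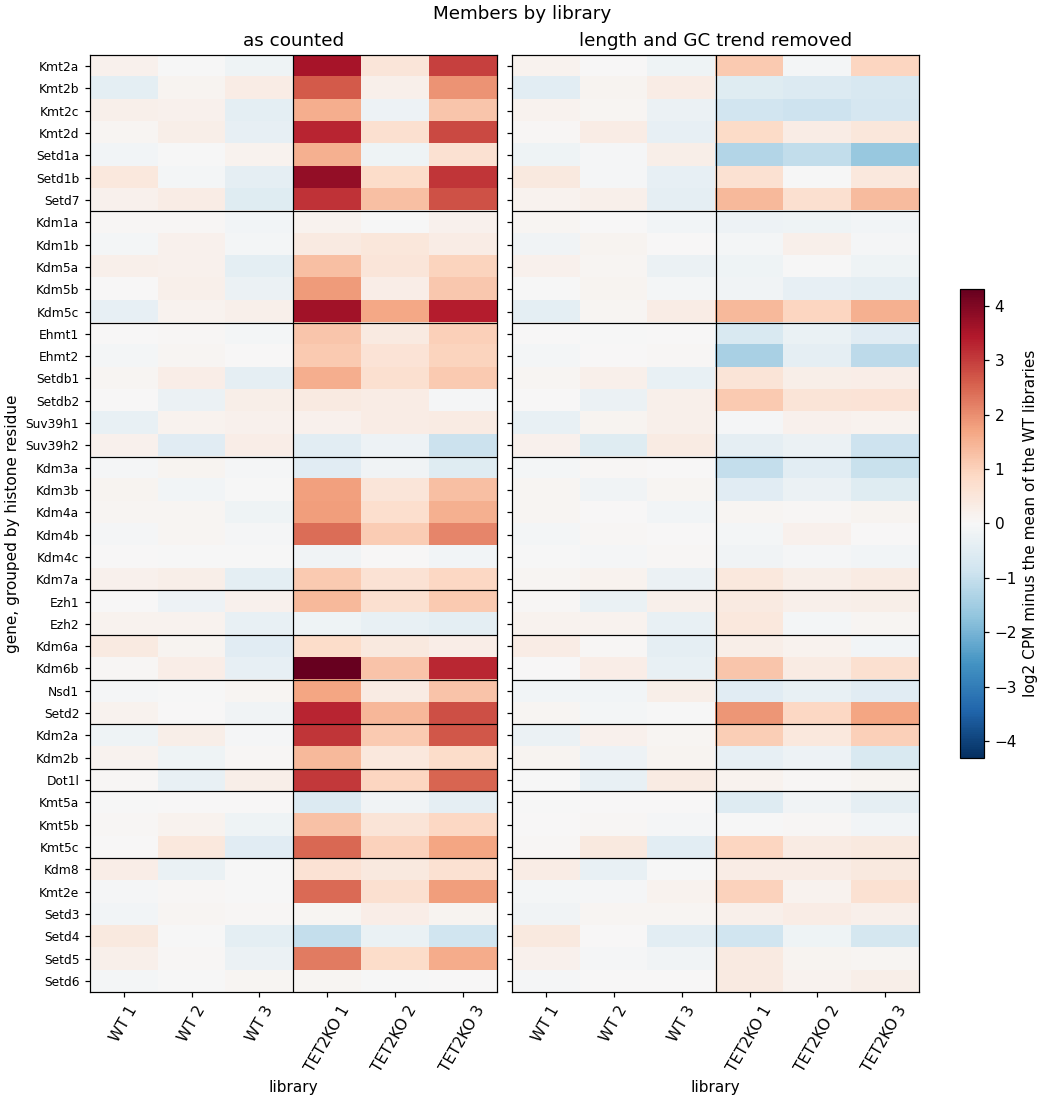
Log2 CPM of each tested member in each library minus the mean of the WT libraries, as counted (left) and with the length and GC trend removed (right), with genes grouped by the residue they act on. On the left TET2KO replicate 2 is paler than replicates 1 and 3 for most genes, and on the right red rows such as Setd2 and Kdm5c stand beside blue rows such as Setd1a and Ehmt2.

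Upstream sequences are shown for 1 gene higher and 1 lower among those whose trend-removed call held in all alternatives, because Tet2 acts on methylated CpG and CpG content is a feature the choice of members did not use. They are the 250 bases before the start site in RefSeq's GRCm38.p6 table, 5′ to 3′ on the strand of the gene, with each CpG dinucleotide in capitals. These windows end at the edge of the annotated gene and lie at chr9:110532347-110532596 (plus strand, Setd2) and chr5:25498784-25499033 (minus strand, Kmt2c).
Setd2: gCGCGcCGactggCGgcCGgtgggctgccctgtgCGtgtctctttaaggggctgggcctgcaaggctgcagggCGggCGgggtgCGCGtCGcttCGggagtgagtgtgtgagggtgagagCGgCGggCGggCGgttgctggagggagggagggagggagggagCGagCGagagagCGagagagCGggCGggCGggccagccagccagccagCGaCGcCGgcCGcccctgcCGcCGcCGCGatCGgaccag
Kmt2c: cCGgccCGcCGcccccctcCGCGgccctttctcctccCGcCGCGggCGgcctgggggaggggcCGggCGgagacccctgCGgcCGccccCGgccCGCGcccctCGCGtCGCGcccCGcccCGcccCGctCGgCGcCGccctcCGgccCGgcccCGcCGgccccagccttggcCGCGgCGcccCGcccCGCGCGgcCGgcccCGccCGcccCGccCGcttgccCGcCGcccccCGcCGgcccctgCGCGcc

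The Setd2 window holds 31 CpG and that of Kmt2c 48. Among the other members whose call held throughout, the windows of Kdm5c, Setd7, Setd1a and Kdm3a hold 10, 17, 25 and 20. The window of Setd1a lies inside the gene as GENCODE annotates it, and those of Kdm5c, Setd7 and Kdm3a reach partly into theirs. These 4 windows are thus not wholly upstream of the annotated gene. The value of Kdm3a is that of its first listed start site, and its other listed sites hold 31 and 0. The start site of Setd7 was not matched to a GENCODE transcript, and Kdm2a has no window here. Of the 45 members 34 matched this table, and over their first listed start sites the median window held 19 CpG (range 0 to 56). The median was 6 over all 27025 genes of the table, which were not limited to the genes tested in these hearts. A comparison with tested genes alone was not made. The 4 matched members higher with the trend removed held 10 to 31 (median 20.5) and the 6 matched members lower held 16 to 48 (median 22.5), and these ranges overlapped. The GC box GGGCGG, searched on both strands, was in 20 of the 34 windows (58.8%, against 32.9% of the same 27025 genes). The ETS motif CCGGAAG was in 6 (17.6%, against 7.05%), the CCAAT box in 14 (41.2%, against 34.5%) and the E box CACGTG in 2 (5.88%, against 6.05%). These are matches of letters only.

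The counts of each residue group below are to be read against the shares of all genes. These were 33.4% higher and 29.4% lower as counted, and 21.9% and 24.3% with the trend removed. Methylases of H3 lysine 4 write the mark of active promoters and enhancers. Of 7 tested, 5 were higher as counted (Kmt2a, Kmt2b, Kmt2d, Setd1b and Setd7), while trend removal left 1 higher and 3 lower, with a median of 0.47. Setd7, a methylase of H3 lysine 4 and of other proteins, had 7.68, 8.42 and 4.65 CPM across WT against 58.4, 16.6 and 45.0 CPM across TET2KO. Every TET2KO library lay above every WT library, and Setd7 was 5.79-fold higher in the mean. The log2 fold change of Setd7 was 2.53 ± 0.46 as counted (adjusted p = 0.0065) and 1.16 ± 0.23 with the trend removed (adjusted p = 0.0052, range over 10 alternatives 0.99 to 1.42 in log2 fold change).

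Setd1a, a catalytic subunit of the COMPASS complexes that methylate promoters, was lower after trend removal. It held 1.63, 1.76 and 2.02 CPM across WT against 5.34, 1.57 and 2.89 CPM across TET2KO, so the groups overlapped, and its log2 fold change of 0.86 ± 0.44 did not pass as counted (adjusted p = 0.12). Its trend-removed value was -1.30 ± 0.24 (adjusted p = 0.0047), and the 3 TET2KO libraries stood at -1.25, -1.06 and -1.63 against the WT mean. Over the 10 alternatives it ran from -1.39 to -0.76, and the values nearest 0 came with the other lengths. In GENCODE 51.8% of its merged exon bases also belong to Gm49388 on the same strand, so its count is uncertain. Setd1a was higher as counted and past the test in 3 of 14 alternatives. These were without TET2KO replicate 2 (1.23), with total library size (1.32) and with no filter (0.93).

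Kmt2c, which with Kmt2d writes monomethylation at enhancers, had 9.94, 9.61 and 6.38 CPM across WT against 25.1, 7.27 and 19.6 CPM across TET2KO. Replicate 2 of TET2KO lay among the WT libraries, and the as-counted value of 1.00 ± 0.43 did not pass (adjusted p = 0.072). Kmt2c was higher and past the test in 5 of 14 as-counted alternatives, among them the fit without TET2KO replicate 2 (1.39) and DESeq2 (0.96). The authors' deposited table also had it higher (0.94, adjusted p = 0.045). Trend removal gave Kmt2c a lower level, at -0.81 ± 0.15 (adjusted p = 0.0047), at -0.81, -0.88 and -0.73 in the 3 TET2KO libraries, so that replicate 2 stood with the others. Over the 10 alternatives Kmt2c ran from -0.91 to -0.53, the latter with the length from counts and TPM. Kmt2d, its paralogue, rose as counted by 2.63 ± 0.60 (2.96 ± 0.605 to 18.4 ± 12.4 CPM) and stood at 0.56 ± 0.21 with the trend removed (adjusted p = 0.058). The trend-removed value of Kmt2d passed when TET2KO or WT replicate 2 was left out, between 0.63 and 0.73, and stood at 0.15 and 0.14, not past the test, with the length from counts and TPM and the merged exon length. The difference between Kmt2c and Kmt2d was not tested.

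Kmt2b, a promoter-directed paralogue of Kmt2a, had 2.02, 2.90 and 3.36 CPM across WT against 17, 3.17 and 10.4 CPM across TET2KO. It was higher as counted (1.89 ± 0.56, adjusted p = 0.021) and lower with the trend removed (-0.61 ± 0.21, adjusted p = 0.043), and both calls depended on single libraries. The as-counted call was lost without WT replicate 1, 2 or 3 or TET2KO replicate 3 (1.71 to 2.05), and the trend-removed call without WT replicate 2 or 3 or TET2KO replicate 1 or 3 (-0.65 to -0.44). It was also lost with the length from counts and TPM (-0.28) and the merged exon length (-0.27). Kmt2a (2.83 ± 0.68) and Setd1b (3.05 ± 0.73) were higher as counted, from WT means of 1.97 and 0.848 CPM, and neither passed after trend removal, at 0.80 ± 0.31 and 0.47 ± 0.29. Both passed without TET2KO replicate 2, at 1.06 and 0.62, and in that library Kmt2a stood at 2.84 CPM, near the WT range of 1.74 to 2.26.

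Demethylases of H3 lysine 4 are flavin enzymes (Kdm1a, Kdm1b) or JmjC enzymes (the Kdm5 genes). Of 5 tested, 3 were higher as counted and 1, Kdm5c, with the trend removed. Kdm5c, an X-linked JmjC enzyme that removes trimethylation, had 1.63, 2.33 and 2.46 CPM across WT against 26.7, 6.87 and 22.5 CPM across TET2KO. All TET2KO libraries lay above all WT libraries, an 8.73-fold higher mean. Its log2 fold change was 3.13 ± 0.51 as counted (adjusted p = 0.0065) and 1.33 ± 0.24 with the trend removed (adjusted p = 0.0045, range over 10 alternatives 1.15 to 1.88 in log2 fold change).

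Its paralogues Kdm5a and Kdm5b, higher as counted by 0.94 ± 0.26 and 1.22 ± 0.39, stood at -0.14 ± 0.15 and -0.28 ± 0.17 with the trend removed, neither past the test. The trend-removed sign of Kdm5a turned with the length from counts and TPM (0.17) and the merged exon length (0.18), not past the test. Kdm5a did not pass as counted without WT replicate 3 (0.76), and Kdm5b did not pass without WT replicate 1, 2 or 3 or TET2KO replicate 1 or 3 (0.81 to 1.34). The flavin enzymes passed in neither setting. Kdm1a (LSD1) had 24.4, 24.4 and 21.8 CPM across WT against 26.2, 23.5 and 26.7 CPM across TET2KO, groups that overlapped (0.11 ± 0.15, trend removed -0.17 ± 0.11). Kdm1b had 12.1, 14.7 and 12.4 CPM across WT against 17, 18.3 and 16.1 CPM across TET2KO, which did not overlap, and did not pass the test (0.39 ± 0.17, adjusted p = 0.074; trend removed 0.038 ± 0.14). Fitted on merged exon length both passed after trend removal, Kdm1a at -0.47 and Kdm1b at 0.43, in opposite directions.

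Methylases of H3 lysine 9, the mark of heterochromatin and silenced genes, had 3 of 6 higher as counted, and after trend removal 1 higher and 2 lower. Ehmt2 (G9a), which writes dimethylation in euchromatin as a dimer with Ehmt1 (GLP), had 17.5, 19.5 and 18.9 CPM across WT against 40.3, 27.9 and 36.7 CPM across TET2KO. It rose as counted (0.91 ± 0.18, adjusted p = 0.0065) and was lower with the trend removed (-0.92 ± 0.24, adjusted p = 0.014). Its transcript is 4026 nt long with a GC content of 60.8%. Its trend-removed call was lost without WT replicate 3 or TET2KO replicate 3, at -0.89 and -0.82.

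Ehmt1 followed the same course, at 9.75, 9.89 and 9.02 CPM across WT against 21.7, 12.4 and 19.4 CPM across TET2KO. The groups did not overlap, and the value was 0.90 ± 0.24 as counted (adjusted p = 0.013) and -0.47 ± 0.14 with the trend removed (adjusted p = 0.024). Its as-counted call was lost without WT replicate 3 (0.86), and its trend-removed call without WT replicate 1, 2 or 3 or TET2KO replicate 1 or 3 (-0.47 to -0.38). Fitted on merged exon length, its trend-removed value was -0.19, not past the test.

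Setdb2, a SET-domain relative of the H3 lysine 9 methylase Setdb1, had 3.74, 3.07 and 4.37 CPM across WT against 4.86, 4.57 and 3.59 CPM across TET2KO, groups that overlapped (0.22 ± 0.25 as counted). After trend removal it was higher by 0.78 ± 0.23 (adjusted p = 0.023), a call lost without WT replicate 1 or 2 or TET2KO replicate 1 (0.56 to 0.78) and with the length from counts and TPM (0.61). Setdb1 was higher as counted (1.16 ± 0.30, trend removed 0.36 ± 0.19) and did not pass without WT replicate 3 (0.99). The heterochromatin enzymes Suv39h1 and Suv39h2 passed in neither setting, at 0.27 ± 0.24 and -0.55 ± 0.33 as counted and 0.082 ± 0.21 and -0.55 ± 0.30 with the trend removed. Suv39h2 held 42 to 71 reads per library. The trend-removed sign of Suv39h1 turned with the length from counts and TPM (-0.20) and the merged exon length (-0.14), and the as-counted sign of Suv39h2 on both TPM scales (0.046 and 0.082), none past the test.

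Demethylases of H3 lysine 9 had 4 of 6 tested higher as counted, and after trend removal 0 higher and 2 lower. Kdm3a, a JmjC enzyme known as a target of hypoxia-inducible factor, had 27.3, 30.3 and 26.9 CPM across WT against 20.2, 25.1 and 19.7 CPM across TET2KO. The TET2KO libraries all lay below the WT libraries, with a value of -0.38 ± 0.16 that did not pass as counted (adjusted p = 0.072; -0.47 without TET2KO replicate 2, past the test). After trend removal Kdm3a was lower, at -0.80 ± 0.16 (adjusted p = 0.0061, range over 10 alternatives -0.999 to -0.692 in log2 fold change). Its as-counted sign flipped with total library size and on both TPM scales, where the median gene also moved up, with values up to 0.25 that did not pass.

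Kdm3b, its paralogue, had 9.94, 8.42 and 9.13 CPM across WT against 31.4, 13 and 22.7 CPM across TET2KO. It rose as counted (1.29 ± 0.31, adjusted p = 0.0098) and was lower with the trend removed (-0.42 ± 0.14, adjusted p = 0.037). The trend-removed call was lost without WT replicate 1 or 3 or TET2KO replicate 1 or 3 (-0.39 to -0.36), with the merged exon length (-0.43), and with the length that the authors' counts and TPM imply, which turned the value to 0.044. Kdm4a, which acts on trimethylated lysines 9 and 36, had 8.11, 7.93 and 6.72 CPM across WT against 26.3, 12.5 and 22.1 CPM across TET2KO. It rose as counted (1.42 ± 0.29, adjusted p = 0.0066), and with the trend removed it stood at 0.097 ± 0.13, close to genes of its length.

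Among the others of this group, Kdm4b rose by 1.99 ± 0.34 as counted and stood at 0.048 ± 0.15 with the trend removed, where the merged exon length gave 0.60, past the test. Kdm7a, which also removes methyl groups from H3 lysine 27, rose by 0.86 ± 0.24 and stood at 0.35 ± 0.15 with the trend removed. It did not pass as counted without WT replicate 3 (0.68), and its trend-removed value passed without TET2KO replicate 2 (0.39) and with the merged exon length (0.78). Kdm4c stood at 14.7 ± 0.234 CPM in WT and 13.9 ± 0.836 CPM in TET2KO and passed in neither setting (-0.085 ± 0.16 and -0.10 ± 0.12).

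Ezh1 and Ezh2, the alternative catalytic subunits of Polycomb repressive complex 2, which methylates H3 lysine 27, had 1 of 2 higher as counted and 0 past the test after trend removal. Ezh1, the form of non-dividing cells, had 12.6, 10.5 and 14.1 CPM across WT against 32.7, 19.9 and 26.9 CPM across TET2KO, without overlap. Ezh2, the form of dividing cells, had 6.14, 6.09 and 4.37 CPM across WT against 4.83, 4.40 and 4.06 CPM across TET2KO, with overlap. The values were 1.10 ± 0.23 for Ezh1 (adjusted p = 0.0066) and -0.32 ± 0.23 for Ezh2 (adjusted p = 0.25). The longest transcripts are 4207 nt for Ezh1 and 2787 nt for Ezh2. The as-counted sign of Ezh2 flipped with total library size and on the TPM scales (up to 0.31). The difference between the pair was not tested. Trend-removed values were 0.28 ± 0.15 and 0.15 ± 0.21, neither past the test, and Ezh2 turned to -0.60, past the test, with the length that the authors' counts and TPM imply. Per length, Ezh1 stood at 2.60 ± 0.174 TPM and Ezh2 at 1.32 ± 0.322 TPM in WT.

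Demethylases of H3 lysine 27 were Kdm6a (UTX) and Kdm6b (JMJD3), the latter known as inducible in inflammation. Kdm6b had 1.06, 1.27 and 0.784 CPM across WT against 21.0, 2.50 and 10.2 CPM across TET2KO. Its TET2KO libraries thus ran from 75 to 778 reads against 14 to 31 in WT, and all lay above WT. The log2 fold change was 3.42 ± 0.72 as counted (adjusted p = 0.007) and 0.86 ± 0.29 with the trend removed (adjusted p = 0.038). The trend-removed call was lost without WT replicate 1, 2 or 3 or TET2KO replicate 1 or 3 (0.58 to 1.03), and the value was 1.38 and 1.42, past the test, with the length from counts and TPM and the merged exon length. Kdm6bos lies antisense over 286 of its exon bases (4.11%), and no source used here gives the strand setting of the counting. The same limit holds for other members with larger opposite-strand overlaps. Among these are Kdm3b (24.6% of exon bases, Gm26538), Suv39h1 (14.6%, Gm14820), Kmt2e (9.31%, Srpk2) and Kdm1b (9.19%, Dek). Kdm6a, X-linked, had 11.2, 9.36 and 6.05 CPM across WT against 15.0, 11.6 and 10.5 CPM across TET2KO and overlapped (0.48 ± 0.27, adjusted p = 0.15; trend removed 0.074 ± 0.20). Without TET2KO replicate 2 it passed as counted, at 0.55.

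The H3 lysine 36 methylases Setd2 and Nsd1 were both higher as counted, and passed in opposite directions after trend removal. Setd2, the enzyme of trimethylation along transcribed genes, had 2.93, 2.70 and 2.35 CPM across WT against 26.3, 7.27 and 18.6 CPM across TET2KO. All TET2KO libraries lay above WT, 6.53-fold in the mean. Setd2 stood at 2.71 ± 0.45 as counted (adjusted p = 0.0065) and, at 1.60 ± 0.26, had the highest trend-removed value of all members (adjusted p = 0.004, range over 10 alternatives 1.40 to 1.97 in log2 fold change). Its TET2KO libraries then stood 1.90, 0.90 and 1.70 above the WT mean.

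Nsd1, an enzyme of mono- and dimethylation of the same residue, had 13.2, 13.4 and 14.4 CPM across WT against 43.9, 17.5 and 32.0 CPM across TET2KO. It rose as counted (1.19 ± 0.31, adjusted p = 0.013; 1.16 without WT replicate 1, not past the test) and was lower with the trend removed (-0.43 ± 0.14, adjusted p = 0.035). That call was lost without WT replicate 1, 2 or 3 or TET2KO replicate 1 or 3 (-0.50 to -0.29), and with the merged exon length (-0.14), and the value turned to 0.049 with the length implied by the authors' counts and TPM. The difference between Setd2 and Nsd1 was not tested.

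Demethylases of H3 lysine 36 that bind unmethylated CpG were Kdm2a and Kdm2b. Kdm2a had 3.22, 4.46 and 3.53 CPM across WT against 31.9, 8.07 and 23.8 CPM across TET2KO, without overlap. It was higher in both settings, at 2.51 ± 0.48 as counted (adjusted p = 0.0065) and 0.89 ± 0.21 with the trend removed (adjusted p = 0.0096, range over 10 alternatives 0.76 to 1.07 in log2 fold change). Kdm2b had 4.27, 3.39 and 3.98 CPM across WT against 10.3, 5.30 and 6.73 CPM across TET2KO. It rose as counted (0.94 ± 0.29, adjusted p = 0.024) and stood at -0.40 ± 0.19 with the trend removed (adjusted p = 0.12). The as-counted call of Kdm2b was lost without WT replicate 1, 2 or 3 or TET2KO replicate 1 or 3 (0.66 to 1.04), and the trend-removed value passed without TET2KO replicate 2 (-0.47).

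Dot1l, the methylase of H3 lysine 79 and the member of this set without a SET domain among the methylases, had 3.26, 2.53 and 3.81 CPM across WT against 26.4, 6.10 and 18.2 CPM across TET2KO. The groups did not overlap and the value was 2.41 ± 0.50 as counted (adjusted p = 0.0069). Trend removal left 0.12 ± 0.18 (adjusted p = 0.60), so against genes of its length (6808 nt) and GC content (57.5%) no difference was detectable.

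Methylases of H4 lysine 20 were Kmt5a, Kmt5b and Kmt5c. Kmt5a had 279, 285 and 283 CPM across WT against 187, 252 and 214 CPM across TET2KO, so every TET2KO library was lower. Its value was -0.37 ± 0.18 as counted (adjusted p = 0.10; -0.47 without TET2KO replicate 2, past the test) and -0.36 ± 0.12 with the trend removed (adjusted p = 0.042). Its as-counted sign flipped with total library size and on the TPM scales, with values up to 0.25 that did not pass. The trend-removed call was lost without WT replicate 1, 2 or 3 or TET2KO replicate 1 or 3 (-0.37 to -0.26). With the length from counts and TPM it stood at -0.81 and with the merged exon length at -0.75, both past the test. Kmt5b, which adds the second and further methyl groups, had 11, 11.9 and 9.46 CPM across WT against 26.0, 15.8 and 20.1 CPM across TET2KO. It rose as counted (0.94 ± 0.22, adjusted p = 0.0096) and stood at -0.026 ± 0.12 with the trend removed. Kmt5c rose by 1.83 ± 0.44 as counted, and its trend-removed value of 0.59 ± 0.29 passed only without TET2KO replicate 2 (0.69) among the libraries left out.

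The remaining members are not placed on a histone residue here. Kmt2e, an MLL-family protein with a divergent SET domain, had 6.34, 6.70 and 6.50 CPM across WT against 35.3, 10.5 and 22.9 CPM across TET2KO. It was higher as counted (1.81 ± 0.40, adjusted p = 0.0077) and with the trend removed (0.65 ± 0.22, adjusted p = 0.035), the latter lost without WT replicate 1, 2 or 3 or TET2KO replicate 1 or 3 (0.44 to 0.72). Setd5 rose by 1.66 ± 0.36 as counted and stood at 0.21 ± 0.15 with the trend removed. The other 4 of this group passed in neither setting under the main choices. Setd3 had 79, 90.3 and 88.7 CPM across WT against 91.8, 106 and 93.9 CPM across TET2KO (0.18 ± 0.15, trend removed 0.25 ± 0.11), and its trend-removed sign turned with the length from counts and TPM (-0.31) and the merged exon length (-0.24), not past the test. Setd6 had 8.02, 8.42 and 8.85 CPM across WT against 8.85, 8.37 and 8.48 CPM across TET2KO, the smallest as-counted difference among the tested members (0.024 ± 0.18, trend removed 0.27 ± 0.14). Kdm8 stood at 0.56 ± 0.25 and Setd4 at -0.76 ± 0.34 as counted, and both passed without TET2KO replicate 2, at 0.66 and -1.01. The trend-removed value of Setd4, -0.66 ± 0.31, also passed without that library, at -0.91, and with the length from counts and TPM (-1.70) and the merged exon length (-1.78). That of Kdm8, 0.35 ± 0.22, passed with the same other lengths, at 0.68 and 0.77.

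**Figure D4:**
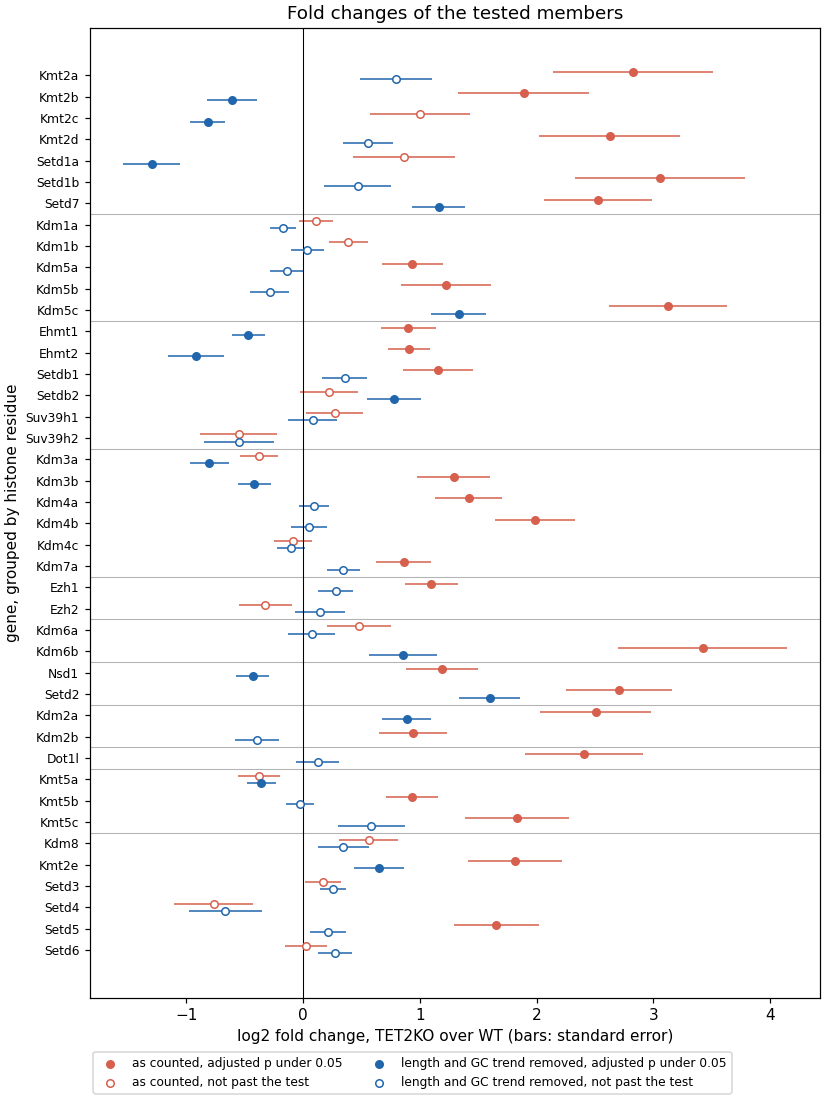
Log2 fold change of TET2KO over WT with its standard error for the 42 tested members, as counted (red) and with the length and GC trend removed (blue), filled where the adjusted p was under 0.05. Nearly all as-counted values of the long KMT2 and SETD genes lie right of 0, while the trend-removed values fall on both sides, from -1.30 (Setd1a) to 1.60 (Setd2).

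Split by activity, methylases and SET-domain genes had 16 of 26 higher as counted (median 1.05) and demethylases 10 of 16 (median 0.94). After trend removal the counts were 4 higher and 7 lower of 26 (median 0.18), and 3 higher and 2 lower of 16 (median 0.043). Over all genes 33.4% were higher and 29.4% lower as counted, and 21.9% and 24.3% with the trend removed. No test was run between the classes.

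Partner genes were taken from 7 lists of complexes and relatives, 67 genes of which 66 were tested. As counted 40 were higher and 8 lower (median 0.72), against 33.4% and 29.4% of all genes. After trend removal 21 were higher and 13 lower (median 0.22), against 21.9% and 24.3%. The counts of each list below are to be read against these same shares. Leaving out WT replicate 3 gave 26 higher and 4 lower as counted, and the lower count was 5 and 3 when TET2KO replicate 1 or 3 was left out, and 4 and 5 when it was WT replicate 1 or 2. Calls over all 14370 genes fell too, from 4806 higher and 4231 lower to 3394 and 2786 without WT replicate 3. The lower calls over all genes were 3255 and 2496 without TET2KO replicate 1 or 3, and 2948 and 3268 without WT replicate 1 or 2. After trend removal the lower count of the partners was 7 and 5 when TET2KO replicate 1 or 3 was left out, and 6, 8 and 6 when it was WT replicate 1, 2 or 3. Over all 14341 genes it fell from 3487 to 2585 and 2037, and to 2199, 2584 and 2157, in the same order. COMPASS partners of the H3 lysine 4 methylases had 8 of 11 higher and 1 lower as counted, and 2 higher and 3 lower with the trend removed. Rbbp5, a core subunit, was higher by 0.90 ± 0.19 with the trend removed (0.97 ± 0.22 as counted), and Psip1, which binds methylated H3 lysine 36 and MLL complexes, by 1.10 ± 0.24 (0.61 ± 0.22). The list has shorter transcripts than the enzymes, with a median of 3307 nt.

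Partners in Polycomb repressive complex 2 had 4 of 9 higher and 2 lower as counted, then 3 higher and 1 lower after trend removal. Suz12, a core subunit needed for activity, rose in both settings (0.66 ± 0.17, trend removed 0.80 ± 0.15). Rbbp4, a histone-binding subunit also of other complexes, fell from 229, 203 and 240 CPM in WT to 78.7, 136 and 92.7 CPM in TET2KO, without overlap (-1.13 ± 0.23, trend removed -1.24 ± 0.20). These subunits of the same complex passed in opposite directions in both settings.

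Partners of LSD1 in the CoREST complexes had 5 of 9 higher and 1 lower as counted, and 3 higher and 1 lower with the trend removed. Rcor1, the CoREST scaffold, rose in both settings (2.24 ± 0.39, trend removed 1.18 ± 0.22), and the deacetylase gene Hdac2 passed with the trend removed (0.26 ± 0.14 as counted, adjusted p = 0.14, and then 0.80 ± 0.14). Readers and partners of H3 lysine 9 methylation had 7 of 9 higher and 0 lower as counted, and 4 higher and 0 lower with the trend removed, with a median of 0.54. The heterochromatin protein genes Cbx1 and Cbx3 did not pass as counted (-0.12 ± 0.15 and -0.095 ± 0.14) and higher with the trend removed (0.56 ± 0.11 and 0.95 ± 0.17). Their transcripts are 1824 and 1889 nt long.

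DOT1L partners had 4 of 6 higher and 1 lower as counted, and 2 higher and 2 lower with the trend removed. Mllt1 was higher (2.41 ± 0.40, trend removed 0.67 ± 0.17) and its paralogue Mllt3, also a reader of acylated histones, lower (-0.69 ± 0.24, trend removed -0.997 ± 0.242). Other lysine methylases had 6 of 12 higher and 3 lower as counted, and 2 higher and 6 lower with the trend removed. Among them Prdm2 was higher (2.56 ± 0.40, trend removed 0.87 ± 0.15) and Smyd4 lower (-0.73 ± 0.23, trend removed -1.17 ± 0.23). Other JmjC proteins had 7 of 11 higher and 0 lower as counted, and 5 higher and 0 lower with the trend removed. Hif1an, the asparagine hydroxylase that restrains hypoxia-inducible factor, was higher by 2.58 ± 0.39 (trend removed 1.03 ± 0.15), and Jmjd8 by 0.86 ± 0.16 (trend removed 0.61 ± 0.12).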

How the data were processed

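Members and gene lists were chosen with earlier results of these data known. Per the submitters' processing notes, reads passed through Trimmomatic 0.36, STAR 2.5.2b, featureCounts of Subread 1.5.2 and DESeq2, with GRCm38 (mm10). Annotation release and strand setting: not given in the sources used here. What the authors deposited were unnormalised counts of reads for each Ensembl gene, and TPM with equal totals over the libraries. A further table holds, per the file headers, log2 fold changes and p-values, and a normalised signal, which is the authors' count over 1 factor for each library. Columns matching no sample numbered 0.

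The main test was edgeR 4.0.16 (R 4.3.3), robust quasi-likelihood, TMM, filterByExpr, group only, Benjamini-Hochberg at 0.05. The SE was taken as the size of the log2 fold change divided by √F. The trend was a smooth surface on transcript length and GC content per library (mgcv 1.9.3, basis size 6 per axis, log2 CPM with a prior count of 2), entered as offsets for the 14341 genes with GENCODE M21 (GRCm38) lengths. Length is that of the longest transcript, protein coding where there is one. Alternatives were total library size, upper quartile, DESeq2 1.42.0, limma-voom 3.58.1, no filter, log2(TPM + 1), log2(TPM + 0.1), a replicate block, 2 other lengths and leaving out each library.

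Library values are given for the members with the highest mean TPM in each residue group (2, or 3 in groups of 6 or more) and those past the trend-removed test with a log2 fold change of 0.5 or more in size, and partners for the 2 with the smallest trend-removed p per list. Kmt2d, Kdm4b and other members outside this rule are given by their fold changes.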

Additional observations from a re-analysis of the deposited data

How the results depend on the processing

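The count of members higher as counted ran from 19 to 30 when 1 library was left out, that of members lower from 0 to 3, and with the trend removed these counts ran from 4 to 12 and from 3 to 11. Genes called over all numbered 6100 to 10894 as counted and 4031 to 8484 with the trend removed (4210 and 4273 without WT replicate 1 and 3). The median log2 fold change of the members was 1.50 on log2(TPM + 0.1) and 1.42 with total library size. Members higher then numbered 36 and 35 (35 on log2(TPM + 1)), against 26, and members not past the test 6 and 7 (7), against 16. With merged exon length in the trend 11 members were higher, while Ehmt2, Kdm1a, Kdm3a, Kmt2c, Kmt5a, Setd1a and Setd4 were lower. Of all 14341 genes in that fit 3442 were higher and 3786 lower. With total library size in the trend-removed fit, an alternative chosen after seeing the data, 7 members were higher and 9 lower (all genes: 3229 and 3393 of 14341). Kdm4c turned to 0.54 on log2(TPM + 0.1) and 0.45 on log2(TPM + 1), past the test, and with the length from counts and TPM the trend-removed values of Ezh2, Kdm3b and Nsd1 turned to -0.60, 0.044 and 0.049; the cause was not tested.

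Partner genes lower as counted numbered 3 on log2(TPM + 0.1), 3 on log2(TPM + 1), 3 with total library size and 4 without a filter. Over all genes the lower calls fell as well, from 4231 of 14370 to 1882, 1832 and 2270, and to 3771 of 31220 without a filter. Leaving out 1 library gave 26 to 44 partner genes higher and 3 to 10 lower as counted (all genes: 3394 to 5752 and 2496 to 5142). With the trend removed 14 to 31 partner genes were higher and 5 to 14 lower, 8 without WT replicate 2 (all genes: 1994 to 4069 and 2037 to 4415). No sign of pairing by replicate number was seen. The deviations of same-numbered libraries correlated at 0.039, -0.23 and -0.013, and not every library correlated best with its own number. Deviations were taken from the mean of each group, so these correlations depend on each other and cannot decide whether libraries were paired. With the replicate number as a block 24 members were higher and 0 lower as counted (all genes: 4070 and 3548 of 14370). With the trend removed 6 members were higher and 5 lower (all genes: 2734 and 2988 of 14341), against 9 lower without the block. With the block 5 partner genes were lower as counted. The low members rest on few reads: Setd1b had 11 to 24 in WT and Kdm6b 14 to 31.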
